A study of Mus musculus with 6 samples.

Results

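Spp1 encodes osteopontin, a secreted phosphorylated glycoprotein, and is 1 of the 31276 genes counted in single cells of obstructed mouse kidneys. It was taken by its symbol, and its level was read in every type of tubule, myeloid and stromal cell that marker genes could define. The kidneys came from 6 C57BL/6 mice, 1 library a mouse, all of which had the ureter of 1 side tied (unilateral ureteral obstruction), with the obstructed kidney taken 7 days after surgery. Of these mice, 3 received SH045, a compound that the series' title ties to inhibition of the cation channel TRPC6, and 3 received Vehicle; the labels name no dose, sex or age. Every library is therefore from an obstructed kidney, and unobstructed kidneys were not analysed here. Spp1, and the pair of cell types compared for it, were chosen by the Spp1 counts and SH045 changes that earlier results of these libraries had shown, so its levels are given as a description and the p-values for it are no independent evidence.

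Osteopontin binds integrins through an RGD motif and binds CD44, and it is cleaved by thrombin and by matrix metalloproteinases. In the kidney it is made mostly by tubule epithelium, above all by the loop of Henle and the distal nephron, reaches the urine, where it inhibits the growth of calcium oxalate crystals, and is a well-known transcript of injured tubules. Macrophages in scarring tissue can make it as well, and it is a chemoattractant for them. Intercalated cells of the collecting duct, which secrete acid (type A) or bicarbonate (type B), are not the segment it is best known for.

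The gene (ENSMUSG00000029304) lies on the plus strand of mouse chromosome 5, from 104435111 to 104441053 in GRCm38.p6. The 250 bases before its annotated start, chr5:104434861-104435110 on the plus strand (RefSeq, GRCm38.p6), are shown because several of the regulators measured below act through motifs of this kind. Capitals mark the only match to the RUNX core ACCACA, at -128 to -123 from the start, and the only match to the ETS core GGAAGT, at -111 to -106, both strands having been searched.
Spp1 promoter: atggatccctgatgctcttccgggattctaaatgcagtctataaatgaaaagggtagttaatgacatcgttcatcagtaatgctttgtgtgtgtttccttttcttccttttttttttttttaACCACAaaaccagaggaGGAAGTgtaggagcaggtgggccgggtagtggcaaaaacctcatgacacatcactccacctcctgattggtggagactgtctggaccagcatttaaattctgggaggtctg
These cores were found in 14% and 19.7% of 32851 mouse promoter windows of this length. A CCAAT box lay on the minus strand at -46 to -42 (33.8% of windows hold one), and the AP-1 motif TGACTCA had 0 matches in this window (4.46% of windows hold one). These matches describe letters and no binding was measured.

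The deposited matrices held 25978 barcodes with raw counts of unique molecular identifiers (UMIs), and 23578 were kept, those with at least 200 genes and at most 50% mitochondrial UMIs. Kept cells numbered 3420, 3985 and 3625 in the SH045 libraries, against 4145, 4265 and 4138 in the Vehicle libraries, with median depths between 3531 and 5408 UMIs. The barcodes above the mitochondrial limit made up 12.4 ± 3.56% of SH045 libraries and 4.34 ± 0.873% of Vehicle libraries (SD, n = 3 each), and their part in the results was not tested. Within these left-out barcodes Spp1 was at 299, 267 and 209 counts per 1000000 UMIs (CPM) in SH045 libraries, against 75.3, 392 and 349 in Vehicle libraries. Counted over their non-mitochondrial UMIs alone, it was at 1772, 1604 and 2058 CPM in SH045 libraries, against 596, 2007 and 2069 in Vehicle libraries. Among kept barcodes, 178 sequences occurred in more than 1 library. Marker genes placed 17708 cells in 23 types, of which 14 had at least 20 cells in every library. In every type each of its markers was higher inside its gate than outside. The gates were drawn on these same markers, so this does not check the names of the types.

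Spp1 was abundant. It took 106135, 104252 and 89611 UMIs in the kept cells of the SH045 libraries, against 54614, 186801 and 99239 in the Vehicle libraries, which is 4887 ± 465 CPM in SH045 and 4191 ± 1652 in Vehicle (SD, n = 3 each). At least 1 Spp1 UMI was seen in 55.3 ± 6.29% of SH045 cells and 53.0 ± 13.0% of Vehicle cells, so on this measure the transcript was found in about as many cells of either group. Summed over all kept cells, its SH045 change was -0.01 ± 0.27 on the log2 scale (edgeR quasi-likelihood test, adjusted p = 0.983, where 4.31% of genes passed).

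Most Spp1 lay in tubule epithelium. Gated epithelial cells held 77.0%, 75.7% and 76.2% of a library's Spp1 UMIs in SH045, against 67.9%, 71.6% and 73.1% in Vehicle. Myeloid cells held 1.4%, 1.14% and 1.64% in SH045, against 4.03%, 1.29% and 1.92% in Vehicle, and stromal cells held 0.909% to 2.06% over all libraries. Most of the remainder, 18.3% to 25.6%, lay in cells that no gate claimed. The epithelial share was higher in each SH045 library than in any Vehicle library, while the myeloid shares overlapped. The ungated share separated as well, at 18.3%, 20.8% and 20.4% in SH045, against 24.7%, 25.6% and 22.6% in Vehicle. Over the Spp1 UMIs of gated cells alone, the epithelial share was 94.2%, 95.6% and 95.8% in SH045, against 90.2%, 96.2% and 94.5% in Vehicle, and these overlap.

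The thick ascending limb, which reabsorbs salt and makes uromodulin, had the highest level, 26479 ± 6400 CPM, here and below counted per 1000000 UMIs of the type (mean ± SD of 6 libraries). Below it came injured tubule, gated on Havcr1, Krt20, Sox9, Cdh6 and Dcdc2a, at 14299 ± 2684, and the distal convoluted and connecting tubule at 13276 ± 2290. These levels differed by less than their spread, and injured tubule was the higher in 4 of 6 libraries. Intercalated cells followed at 7290 ± 3364, then proximal tubule at 2719 ± 747, and each was below the type before it in all 6 libraries. Fibroblasts (1904 ± 1419), principal cells (1517 ± 435) and endothelium (1502 ± 1386) could not be ordered, since each was above the next in only 3 or 4 of 6 libraries. The immune types lay lowest, with granulocytes at 960 ± 729, T cells at 395 ± 378, monocytes at 350 ± 233, macrophages at 335 ± 149, Xcr1+ dendritic cells at 171 ± 65.2 and Cd209a+ dendritic cells at 165 ± 48.4. T cells, which are taken here as a type with little Spp1 of their own, stood below every tubule type in 6 of 6 libraries, but above macrophages in 2 of 6. That they make little of it was not tested. Natural killer (NK) cells (1205 ± 1289) and B cells (852 ± 850), with as few as 9 and 10 cells in a library, had higher means than T cells.

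**Figure D1:**
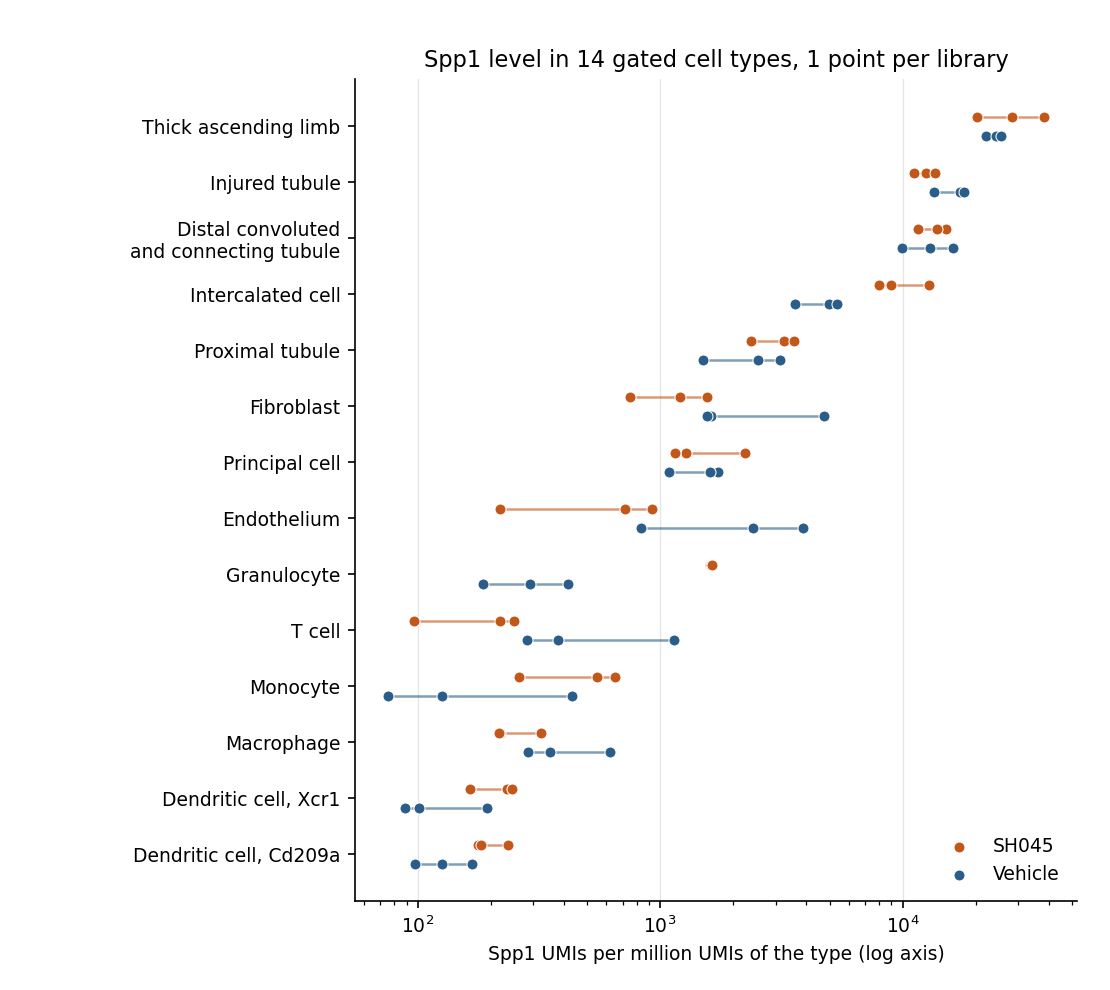
Spp1 level (CPM, per UMIs of the type) in 14 cell types on a log axis, with 1 point per library, SH045 (orange) drawn above Vehicle (blue) and a line joining the libraries of a group. Tubule libraries span 1091 to 38288, and intercalated cells and granulocytes show SH045 libraries entirely to the right of Vehicle libraries.

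In 4 of the 14 types the SH045 and Vehicle libraries did not overlap: intercalated cells, granulocytes and Cd209a+ dendritic cells were higher and T cells lower in SH045. Of these, the tests over all genes called Spp1 in intercalated cells and granulocytes (2.09% and 0.206% of genes passed there) and not in Cd209a+ dendritic cells (0.48 ± 0.18, adjusted p = 0.323 by edgeR, 0.128% passed) or T cells (-1.68 ± 0.72, adjusted p = 0.465, 0.527% passed).

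In the thick ascending limb Spp1 stood at 28354, 20357 and 38288 CPM in SH045 libraries, against 22189, 24302 and 25382 in Vehicle libraries. The SH045 libraries spread to both sides of the Vehicle ones, and the change was 0.17 ± 0.19 (adjusted p = 0.733). In this type edgeR passed 0 of 7934 genes (0%), with 940 at an unadjusted p under 0.05, and DESeq2 passed 14 of the 938 genes it adjusted. The distal convoluted and connecting tubule had 15134, 11530 and 13845 in SH045, against 13036, 16159 and 9955 in Vehicle, a change of -0.07 ± 0.20 (edgeR adjusted p = 0.945, 0.0386% passed). Here too the groups overlapped.

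Proximal tubule, the segment that takes back most of the filtrate, had 3247, 2372 and 3551 CPM in SH045, against 1496, 2528 and 3120 in Vehicle (0.25 ± 0.23, edgeR adjusted p = 0.730, 0.0669% passed). The Vehicle 1 library was the low one, with 49.4% of its 605 proximal cells holding a Spp1 UMI, where the other libraries had 84.1% to 91.4%. Principal cells, the water-reabsorbing neighbours of intercalated cells, had 2234, 1273 and 1154 in SH045, against 1091, 1739 and 1610 in Vehicle (0.03 ± 0.21, adjusted p = 0.961, 3.56% passed), with both groups over the same range. In proximal tubule, Spp1 was higher in cells with a UMI of Havcr1, the injury marker KIM-1, than in those without in 6 of 6 libraries, by 1.31 to 3.66 times. The same was seen in the thick ascending limb, by 1.73 to 2.72 times in 6 of 6 libraries, on 5 to 40 cells with a Havcr1 UMI each. In injured tubule, whose gate uses Havcr1, the ratio was above 1 in 4 of 6 libraries and was 0.984 and 0.748 in SH045 1 and SH045 3. In intercalated cells it ran from 0.368 to 1.50, and in principal cells it was below 1 in each of the 5 libraries with a value, on 1 to 3 cells with a Havcr1 UMI each.

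The study's contrast was then asked of 2 tubule types together: whether SH045 moved Spp1 alike in injured tubule and in intercalated cells. In intercalated cells Spp1 had 12826, 7991 and 8968 CPM in SH045 libraries, against 3608, 4965 and 5379 in Vehicle libraries. The lowest SH045 library lay above the highest Vehicle library, and Spp1 rose by 1.04 ± 0.17 on the log2 scale (edgeR adjusted p = 0.000808, with 2.09% of 9254 genes passing and Spp1 ranked 9 by p). In injured tubule it had 12494, 13583 and 11156 in SH045, against 13425, 17223 and 17912 in Vehicle, where the lowest Vehicle library lay within the SH045 range. That change was -0.47 ± 0.15 and did not pass (adjusted p = 0.117, 1.59% of genes passing).

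The difference between the 2 changes, injured tubule minus intercalated cells, was -1.51 ± 0.15 (edgeR, library as a block, adjusted p = 1.35e-06). It had the smallest p of 10717 genes, of which 0.149% passed, 7 higher and 9 lower. Within a library, the level in injured tubule over that in intercalated cells was 0.974, 1.70 and 1.24 in SH045, against 3.72, 3.47 and 3.33 in Vehicle. Thus injured tubule carried over 3 times the intercalated level in each Vehicle library and 0.974 to 1.70 times in the SH045 libraries. On the log2 scale the ratio averaged 0.35 ± 0.40 in SH045 and 1.81 ± 0.08 in Vehicle (SD, n = 3 each), and an exact 2-sided permutation test gave p = 0.1, the smallest that 20 regroupings allow.

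**Figure D2:**
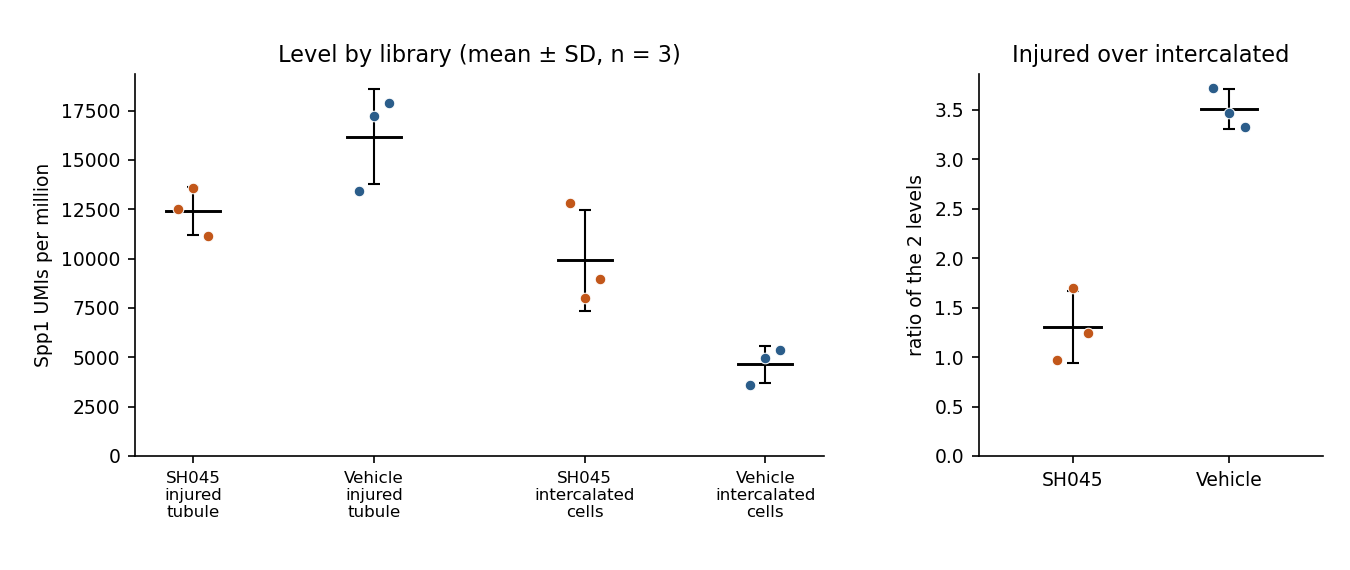
Left, Spp1 CPM in injured tubule and in intercalated cells, 1 point per library with mean and SD (n = 3), SH045 left of Vehicle; right, the ratio of the 2 levels within each library. The 3 SH045 ratios lie between 0.974 and 1.70 and the 3 Vehicle ratios between 3.33 and 3.72.

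These types also took different parts of the library's Spp1. Intercalated cells held 13.7%, 20.9% and 12.2% of all Spp1 UMIs in SH045, against 3.89%, 6.04% and 7.82% in Vehicle, while making up 4.65%, 11% and 5.30% of cells in SH045, against 2.39%, 7.57% and 5.05% in Vehicle. Injured tubule held 12.5%, 14.2% and 15.8% of it in SH045, against 23.1%, 21.7% and 31.6% in Vehicle, from 3.71%, 3.11% and 4.19% of cells in SH045, against 3.31%, 4.64% and 3.58% in Vehicle. Both shares separated the groups, in opposite directions, although the cell shares overlapped.

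Set against intercalated cells in the same way, 12 other types were compared, and the Spp1 difference passed in 2. Principal cells differed by -1.03 ± 0.13 (edgeR adjusted p = 4e-06, 0.335% of genes passing) and proximal tubule by -0.74 ± 0.16 (adjusted p = 0.0188, 0.428% passing). The differences for the thick ascending limb (-0.93 ± 0.27, adjusted p = 0.694, 0.135% passing) and the distal convoluted and connecting tubule (-1.06 ± 0.28, adjusted p = 0.873, 0.0508% passing) were of like size and did not pass. Granulocytes differed in the other direction, by 1.4 ± 0.30 (adjusted p = 0.0553, 0.0405% passing). Endothelium (-2.98, 0.0681% passing), T cells (-2.56, 0.292% passing), fibroblasts (-1.90, 0.2% passing), macrophages (-1.88, 0.244% passing), Cd209a+ and Xcr1+ dendritic cells (-0.51 and -0.42, 0.15% and 0.127% passing) and monocytes (0.16, 0.0922% passing) did not pass, with adjusted p between 0.505 and 1. Whether the injured tubule and intercalated difference is larger than these was not tested.

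Within intercalated cells the groups separated in the upper part of the distribution and overlapped at the median. The median cell had 44.6, 21.8 and 33.4 Spp1 UMIs per 10000 in SH045, against 9.76, 32.6 and 21.5 in Vehicle. These medians averaged 33.3 in SH045 and 21.3 in Vehicle, and whether the change differs between percentiles was not tested. At the 75th percentile the cells had 137, 84.0 and 96.8 in SH045, against 40.0, 67.5 and 64.0 in Vehicle, and at the 90th percentile 262, 181 and 217, against 85.1, 124 and 160. At both of these upper points every SH045 library lay above every Vehicle library. The share of intercalated cells with any Spp1 UMI did not separate the groups, at 90.6%, 82.6% and 82.8% in SH045, against 71.7%, 89.5% and 87.6% in Vehicle. T cells of the same libraries had a Spp1 UMI in 23.0% to 43.4% of cells. Median depths of intercalated cells were 6221, 5195 and 5072 UMIs in SH045, against 5288, 6309 and 6480 in Vehicle, and those of T cells lay between 3010 and 4767.

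Type B cells, marked by the chloride and bicarbonate exchanger pendrin (Slc26a4), Insrr and Hmx2, carried the highest levels, 25135, 13796 and 15788 CPM in SH045, against 6196, 5927 and 8777 in Vehicle. These come from 27, 109 and 33 cells in SH045, against 16, 40 and 22 in Vehicle, and the groups did not overlap. In this subset alone Spp1 rose by 1.39 ± 0.24 (edgeR adjusted p = 0.000726, 0.397% of genes passing). Type A cells, marked by the exchanger Slc4a1, Aqp6 and Kit, had 8448, 4078 and 5811 in SH045, against 3277, 4074 and 4128 in Vehicle, where the SH045 2 library lay inside the Vehicle range (0.63 ± 0.18, adjusted p = 0.120, 0.65% passing). Cells with neither or both programmes had 10147, 8860 and 9867 in SH045, against 2524, 5674 and 6601 in Vehicle (0.99 ± 0.40, adjusted p = 0.432, 0.707% passing). Against injured tubule, the difference of changes was -1.84 with type B alone (adjusted p = 1.81e-10, 0.112% passing) and -1.02 with type A alone, which did not pass (adjusted p = 0.0949, 0.154% passing). Type B made up 17.0%, 24.9% and 17.2% of intercalated cells in SH045, against 16.2%, 12.4% and 10.5% in Vehicle. This share separated the groups, and its part in the intercalated change was not tested. Whether the change differs between the types A and B was not tested.

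**Figure D3:**
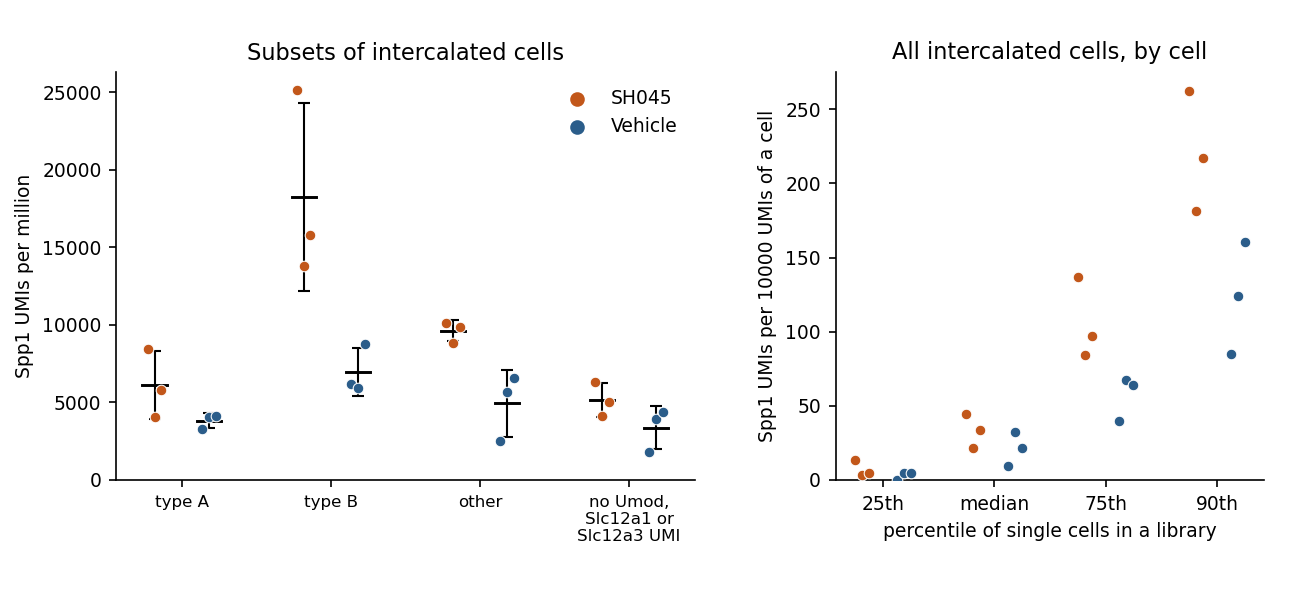
Left, Spp1 CPM in subsets of intercalated cells, 1 point per library with mean and SD (n = 3), SH045 (orange) left of Vehicle (blue); right, Spp1 UMIs per 10000 UMIs of a cell at 4 percentiles of the cells of a library. Type B shows SH045 libraries at 13796 or more and Vehicle libraries at 8777 or less, and the 75th and 90th percentiles separate the groups where the median does not.

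Of the transcripts of neighbouring segments, Umod separated the groups in intercalated cells and Slc12a1 did not. Umod, the thick limb transcript for uromodulin, was at 288, 243 and 240 CPM in intercalated cells of SH045 libraries, against 138, 121 and 135 in Vehicle libraries. At the Spp1 to Umod ratio of the thick limb of the same library, RNA from that limb would bring 4.19%, 5.2% and 9.71% of the intercalated Spp1 in SH045, against 6.62%, 4.33% and 4.87% in Vehicle. This takes the Umod to come with the limb's own mix of RNA, and it leaves out other tubule types with Spp1. Slc12a1, which marks the thick limb, had 3, 9 and 5 UMIs in all intercalated cells of SH045 libraries, against 0, 2 and 8 in Vehicle libraries. Where Slc12a1 was seen, Umod UMIs per Slc12a1 UMI ran from 24.25 to 137 in intercalated cells, and from 2.67 to 5.90 in the thick limb. The percentages above are therefore no upper limit on Spp1 from other cells. Havcr1 in intercalated cells was between 2.2 and 6.2 CPM in every library.

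Intercalated cells holding a UMI of Umod, Slc12a1 or Slc12a3 made up 44.0%, 33.6% and 27.6% of the type in SH045, against 23.2%, 38.4% and 34.4% in Vehicle, and had 19546, 13052 and 15260 Spp1 CPM in SH045, against 8012, 6448 and 6825 in Vehicle. Those without had 6308, 4129 and 5015 in SH045, against 1794, 3937 and 4387 in Vehicle, and these groups overlap. In the cells without, the change was 0.56 ± 0.34 (edgeR adjusted p = 0.476, 1.54% passing) and the difference from injured tubule was -1.07 ± 0.21 (adjusted p = 0.0618, 0.0864% passing), so neither passed. The part of loop RNA or of doublets in the intercalated result beyond these values was not tested. The intercalated call was also lost when a trend of fold change with transcript length was removed, at 1.22 ± 0.24 (adjusted p = 0.0694).

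In injured tubule nearly every cell held Spp1, with a UMI in 92.7% to 99.3% of cells of each library, and the median cell had 86.6, 100 and 65.0 UMIs per 10000 in SH045, against 68.6, 109 and 110 in Vehicle. Havcr1, a gate marker, stood at 1407, 1375 and 1457 CPM in SH045, against 1822, 1628 and 1676 in Vehicle, so its groups did not overlap, without passing the test (-0.36 ± 0.12, adjusted p = 0.135). Krt20, a keratin of injured tubules that is also in the gate, fell by 0.78 ± 0.15 (adjusted p = 0.0257), with 157, 166 and 124 in SH045, against 220, 228 and 272 in Vehicle. Without the Vehicle 1 library the Spp1 change in injured tubule was -0.61 ± 0.13 and passed (edgeR adjusted p = 0.0268), and DESeq2 on all 6 libraries passed it as well at -0.48 ± 0.14 (adjusted p = 0.0490).

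The difference test placed a few other genes beside Spp1. Among the most negative differences, injured tubule minus intercalated cells, were those of Rnase1 (-5.50), which encodes a secreted ribonuclease, Pdpn (-2.03), which encodes podoplanin, and Gpx3 (-1.86), the plasma glutathione peroxidase, ahead of Spp1. Rnase1 rests on few UMIs, with 21.1, 20.6 and 11.5 CPM in intercalated cells of SH045 libraries, against 1.70, 2.64 and 2.77 in Vehicle, and at most 8.01 in any injured tubule sum. Gpx3 in intercalated cells had 3109, 3664 and 2031 CPM in SH045, against 1231, 972 and 859 in Vehicle, while injured tubule had 5191, 8176 and 6565 in SH045, against 10326, 7222 and 7083 in Vehicle. It thus followed the direction of Spp1 in intercalated cells with groups that do not overlap. The largest positive differences were in Iigp1 (3.26), Tgtp1 (2.95), Igtp (2.41) and Ifi47 (2.13), all interferon-inducible GTPases, and in Atp6v1b1 (1.30), a proton pump subunit of intercalated cells. In intercalated cells these GTPases fell (-2.37 to -1.45, edgeR adjusted p = 0.000808 to 0.00687, 2.09% of genes passing). In injured tubule none of their changes passed (adjusted p = 0.354 to 0.832, 1.59% passing). Atp6v1b1 changed by 1.11 in injured tubule, on means of 23.7 CPM in SH045 and 10.4 in Vehicle, and by -0.23 in intercalated cells. Neither passed (adjusted p = 0.0997 and 0.431). Igtp shows the pattern of the GTPases, with 8.81, 16.5 and 7.41 CPM in intercalated cells of SH045 libraries, against 51.0, 33.9 and 33.3 in Vehicle. In injured tubule it had 30.2, 98.2 and 16.5 in SH045, against 31.9, 31.5 and 25.7 in Vehicle, and the SH045 2 library stood apart.

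Myeloid cells had far less Spp1 than tubules. Macrophages, gated on genes that include the complement C1q genes, Adgre1 and Ms4a7, had 323, 218 and 217 CPM in SH045 libraries, against 618, 350 and 284 in Vehicle libraries, and the lowest Vehicle library lay inside the SH045 range. The change was -0.90 ± 0.33 and did not pass (edgeR adjusted p = 0.174, 4.71% of genes passing). Without the Vehicle 3 library it was -1.12 and passed (adjusted p = 0.0313). A Spp1 UMI was found in 41.8%, 31.3% and 28.7% of macrophages in SH045, against 29.1%, 47.3% and 35.7% in Vehicle. T cells of these libraries had one in 38.2%, 28.1% and 23.0% of cells in SH045, against 27%, 43.4% and 32.3% in Vehicle, at median depths of 3010 to 4767 UMIs, where macrophages had 2817 to 3893. With every cell thinned to 2000 UMIs, which no kept cell fell short of, the share was 30.1%, 21.6% and 19.8% of macrophages in SH045, against 21.9%, 30.6% and 22.9% in Vehicle. T cells thinned alike had 25.4%, 18.5% and 14.7% in SH045, against 18.7%, 24.9% and 17.3% in Vehicle, below macrophages in each library. A share at the T-cell level is read here as background, an assumption that was not tested, and the macrophage share exceeded it by a median of 4.91 percentage points. Without barcodes holding a tubule UMI macrophages had 327, 203 and 207 CPM in SH045, against 619, 290 and 267 in Vehicle (-0.85 ± 0.42, edgeR adjusted p = 0.304, 4.57% passing).

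A small set of macrophages held most of the type's Spp1. Cells with at least 10 Spp1 UMIs per 10000 numbered 95 of 2454 (3.87%) in SH045 and 128 of 2991 (4.28%) in Vehicle, and held 50.3% of macrophage Spp1 in SH045 and 66.0% in Vehicle. Of these high cells, 9.47% in SH045 and 10.2% in Vehicle also had a UMI of the tubule genes Epcam, Cdh16 or Krt8. Among T cells the high cells were about as frequent, 25 (4.43%) in SH045 and 24 (5.43%) in Vehicle, but 60.0% of them in SH045 and 79.2% in Vehicle had such a tubule UMI. Of the other macrophages 3.69% in SH045 and 4.09% in Vehicle had a tubule UMI, and of the other T cells 5.38% and 8.61%. In both types a tubule UMI was thus more frequent in high cells. It was seen in most high T cells and in few high macrophages. These cells are pooled over the libraries of a group, and a cell without such a UMI may still hold tubule RNA.

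By subset, macrophages of the lipid-associated type (Gpnmb, Trem2, Fabp5, Lgals3, Cd9) had 798, 494 and 277 CPM in SH045, against 2146, 618 and 636 in Vehicle (-1.25 ± 0.73, edgeR adjusted p = 0.552, 0.243% passing). The Vehicle 1 value rests on few cells, as the top 5% of its cells held 88.0% of the subset's Spp1. The infiltrating type (Fn1, Ccr2, Ly6c2, Thbs1, Vcan, Arg1) had 729, 647 and 1101 in SH045, against 830, 578 and 270 in Vehicle, and the resident type (Mrc1, Stab1, Folr2 and others) had 170, 109 and 117 in SH045, against 86.9, 135 and 184 in Vehicle. In all 6 libraries the resident type was the lowest of these 3. Lipid-associated cells made up 10.1%, 12.4% and 13.0% of macrophages in SH045, against 19.0%, 23.8% and 17.4% in Vehicle, and resident cells 21.4%, 24.7% and 28.2% in SH045, against 17.9%, 18.0% and 19.9% in Vehicle. Both shares separated the groups, and their part in the macrophage change was not tested. None of the subset changes passed (adjusted p = 0.644 for the infiltrating type, 0.407% passing, 0.607 for the resident type, 0.802% passing, and 0.488 for macrophages of no subset, 0.974% passing).

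Granulocytes, gated on S100a8, S100a9, Cxcr2, Csf3r and Retnlg, had 1604, 1628 and 1635 CPM in SH045, against 186, 418 and 291 in Vehicle, and Spp1 rose by 2.42 ± 0.30 (edgeR adjusted p = 0.000502, 0.206% of 1940 genes passing). These sums rest on 111 cells in SH045 and 74 in Vehicle. Of their high cells, 14 in SH045 and 5 in Vehicle, 71.4% in SH045 and 60.0% in Vehicle had a tubule UMI. Without barcodes holding a tubule UMI the level was 125, 503 and 215 in SH045, against 176, 297 and 151 in Vehicle, and the change was 0.27 ± 0.47 (adjusted p = 0.941, 0.0598% passing). In granulocytes without a tubule UMI the groups thus overlapped. Granulocyte sums also held the macrophage transcripts Apoe at 11621 CPM and Trem2 at 114 (means of 6 libraries). Macrophages had 27578 and 209, and monocytes 3341 and 96.0. How far this gate holds other myeloid cells or their RNA was not tested.

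Monocytes (gated on genes that include Ly6c2, Plac8, Chil3 and F10) had 654, 550 and 262 CPM in SH045, against 75.4, 431 and 126 in Vehicle, with the Vehicle 2 library inside the SH045 range (1.09 ± 0.77, edgeR adjusted p = 0.733, 0.111% passing). Without barcodes holding a tubule UMI they had 577, 575 and 267 in SH045, against 71.0, 156 and 123 in Vehicle. The groups then no longer overlapped and the change was 1.90 ± 0.34 (adjusted p = 0.0352, 0.211% passing), a comparison added after the data were seen and resting on 138 SH045 and 201 Vehicle cells before that filter. Without the Vehicle 2 library, and with all barcodes, the change was 2.15 (adjusted p = 0.0364). Xcr1+ dendritic cells, which cross-present antigen, had 233, 244 and 165 in SH045, against 88.5, 194 and 102 in Vehicle (0.56 ± 0.29, adjusted p = 0.435, 0.163% passing); without the Vehicle 2 library the change was 1.01 and passed (adjusted p = 0.00944). Cd209a+ dendritic cells had 236, 178 and 182 in SH045, against 97.2, 168 and 126 in Vehicle, and by CPM both kinds of dendritic cell lay below the T cells of their own library in most libraries. Thinned to 2000 UMIs, the share with a Spp1 UMI was above that of T cells in 5 of 6 libraries for Cd209a+ cells and in 1 for Xcr1+ cells. Without barcodes holding a tubule UMI, Cd209a+ cells had 240, 190 and 139 CPM in SH045, against 95.7, 150 and 126 in Vehicle. Xcr1+ cells then had 134, 248 and 96.4, against 89.1, 166 and 98.8, and T cells 160, 97.8 and 79.1, against 129, 111 and 160.

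**Figure D4:**
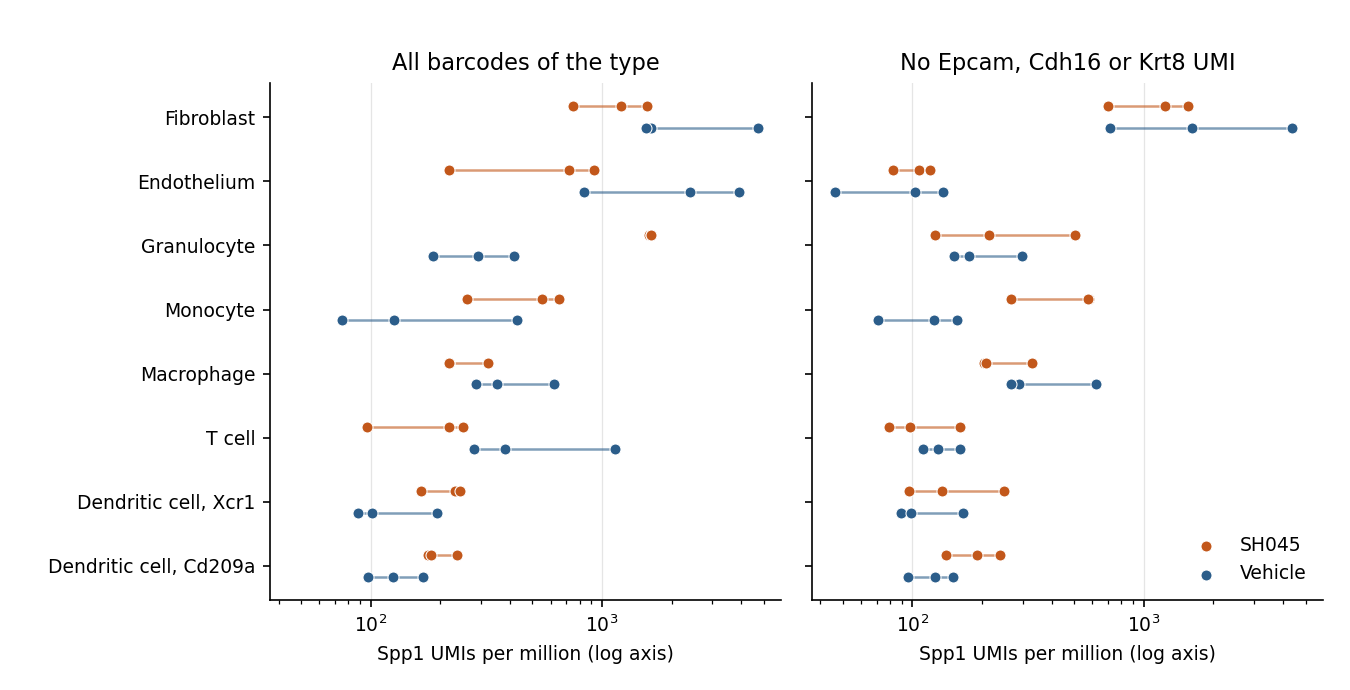
Spp1 CPM in immune and stromal types on a log axis, 1 point per library, SH045 (orange) drawn above Vehicle (blue), for all barcodes (left) and without barcodes holding an Epcam, Cdh16 or Krt8 UMI (right). Granulocytes, T cells and Cd209a+ dendritic cells come to overlap at right, fibroblasts stay at 700 or more, and the monocyte groups separate.

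Among stromal cells, fibroblasts, the collagen-producing cells of scars, had 1208, 753 and 1563 CPM in SH045, against 1622, 4722 and 1554 in Vehicle. The Vehicle values rest on 24 to 30 cells a library, and the change was -1.12 ± 0.54 (edgeR adjusted p = 0.603, 0.0774% passing). High cells made up 15.9% of fibroblasts in SH045 and 29.3% in Vehicle. They held 90.7% of fibroblast Spp1 in SH045 and 98.0% in Vehicle. A tubule UMI was present in 11.5% of these high cells in SH045 and 8.33% in Vehicle, against 7.76% and 1.72% of the other fibroblasts. Without such barcodes the level was 1236, 700 and 1550 in SH045, against 1622, 4383 and 713 in Vehicle (-0.91, adjusted p = 0.805, 0.082% passing). Endothelium had 719, 928 and 219 in SH045, against 2414, 834 and 3896 in Vehicle (-1.95 ± 0.85, adjusted p = 0.419, 0.0534% passing). Of its high cells 61.9% in SH045 and 75% in Vehicle had a tubule UMI, and without such barcodes the level was 107, 119 and 82.2 in SH045, against 102, 135 and 46.3 in Vehicle (0.06 ± 0.34, adjusted p = 0.960, 0.578% passing). T cells without them had 160, 97.8 and 79.1 in SH045, against 129, 111 and 160 in Vehicle, so fibroblasts then lay above the T cells of their own library in 6 of 6 libraries.

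Transcripts for osteopontin receptors were spread over tubule, stromal and myeloid types. Cd44, the hyaluronan receptor, was highest in monocytes (282 CPM, mean of 6 libraries), granulocytes (253) and injured tubule (236), and was at 2.70 in intercalated cells. Itgav, the alpha subunit of the RGD-binding integrins, was highest in injured tubule (260), the distal convoluted and connecting tubule (209) and intercalated cells (179), and Itgb6, an epithelial partner of it, was at 278 in injured tubule and 263 in intercalated cells. Itgb1, the common beta subunit, was highest in fibroblasts (912) and endothelium (796), as was Itgb3, at 27.3 in fibroblasts and 54.2 in endothelium. Of the other secreted phosphoproteins of the family encoded beside Spp1, Ibsp reached 11.3 CPM in fibroblasts.

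**Figure D5:**
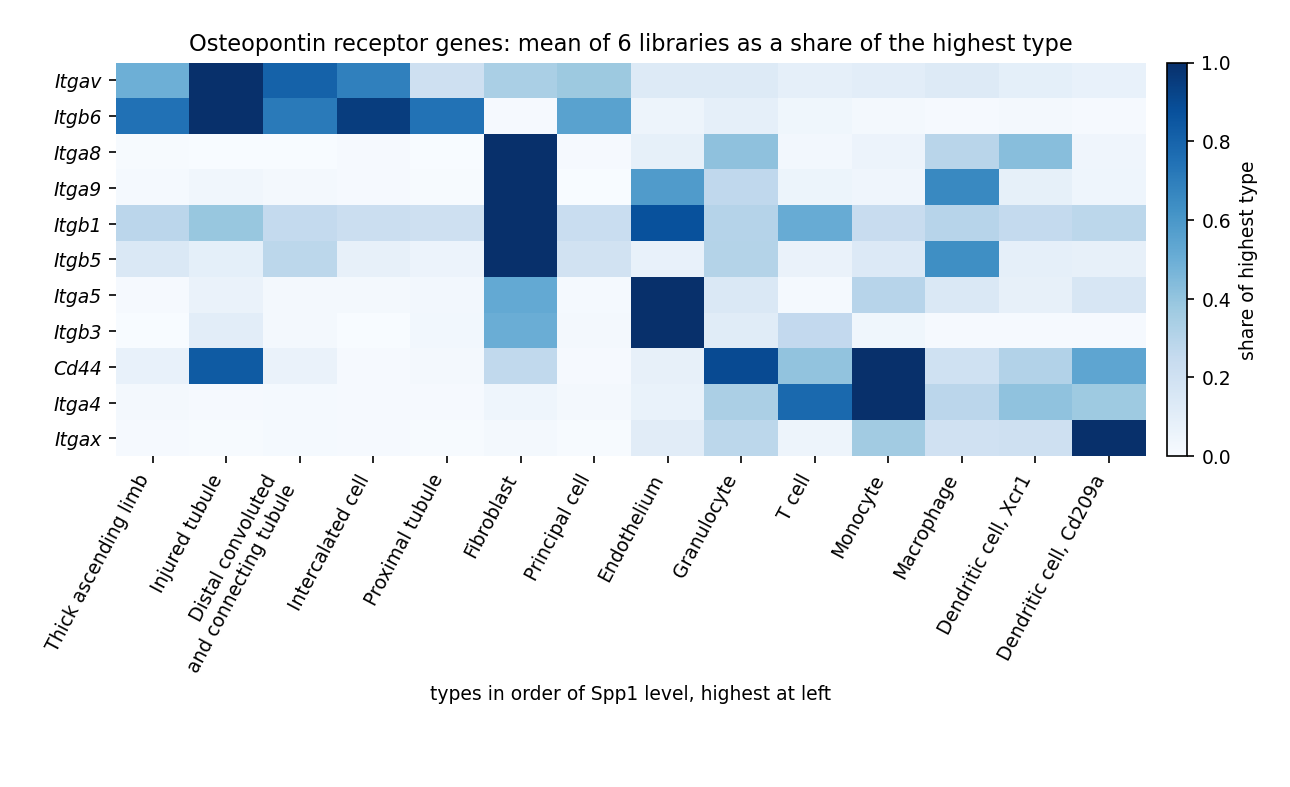
Mean level over 6 libraries of 11 receptor genes in 14 cell types, each row scaled to its highest type (0 to 1), with types ordered by Spp1 level from left to right. Itgav and Itgb6 are darkest in tubule types, Itgb1 and Itgb3 in fibroblasts and endothelium, and Cd44 in injured tubule, granulocytes and monocytes.

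In injured tubule 43 of 67 listed genes around osteopontin could be tested and 1 passed, Krt20, where 1.59% of all genes passed. Of the 5 receptors tested, Cd44 had 374, 275 and 195 in SH045, against 117, 212 and 242 in Vehicle (0.45 ± 0.33, edgeR adjusted p = 0.502), and Itgav and Itgb6 came to 0.33 ± 0.17 (adjusted p = 0.276) and 0.36 ± 0.14 (adjusted p = 0.169). Over the 14 tubule injury genes, all tested, the median change was -0.20, against 0.01 over all genes. Lcn2, which encodes the injury marker NGAL, had 1718, 940 and 669 CPM in SH045, against 1095, 3096 and 1329 in Vehicle and did not pass (adjusted p = 0.509). C3, the central complement component, had 1766, 1489 and 1182 in SH045, against 606, 740 and 1060 in Vehicle, groups that do not overlap, and did not pass (0.79 ± 0.20, adjusted p = 0.078).

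In intercalated cells 34 of 67 listed genes could be tested, and 2 rose and 1 fell, where 2.09% of all genes passed. Vdr, the vitamin D receptor and a known activator of Spp1 transcription, rose by 0.80 ± 0.21 (edgeR adjusted p = 0.0378), with 83.7, 53.7 and 52.7 in SH045, against 32.3, 32.6 and 38.1 in Vehicle. Neat1, a nuclear RNA listed as a sign of RNA quality, rose by 1.06 ± 0.21 (adjusted p = 0.00674), and Krt18, an epithelial keratin, fell by 0.60 (adjusted p = 0.0454). Each of these groups was free of overlap. Of the RNA quality genes that did not pass, Malat1 was higher in SH045 without overlap, at 21405, 22269 and 29321, against 13376, 19202 and 14904 in Vehicle. So was mt-Nd2, at 9580, 9419 and 11093, against 6213, 8071 and 6501, while mt-Co1, mt-Nd1, mt-Nd4 and mt-Cytb overlapped. Vdr was also higher in SH045 without overlap in injured tubule, at 69.9, 66.1 and 70.9, against 35.1, 42.9 and 58.9 in Vehicle. So it was in the thick ascending limb, proximal tubule and the distal convoluted and connecting tubule. In none of these types did the Spp1 change pass. In principal cells the Vdr groups overlapped. Of the factors whose cores were marked in the promoter, Ets1 averaged 4.33 CPM in intercalated cells, 31.4 in injured tubule and 431 in endothelium, and Runx2 averaged 0 in intercalated cells, 1.57 in injured tubule and 24.8 in fibroblasts. In the difference between injured tubule and intercalated cells, Neat1 was the 1 listed gene of 43 that passed (-1.01, adjusted p = 0.0472), where 0.149% of all genes passed, and Itgb6 came to 0.68 (adjusted p = 0.108).

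In macrophages, where 4.71% of all genes passed, 5 of 48 tested listed genes rose and 3 fell. The integrin subunits Itga4 (0.68, edgeR adjusted p = 0.0215) and Itga9 (0.54, adjusted p = 0.0325), which pair with beta subunits to bind osteopontin, rose, as did Sp1 (1.05, adjusted p = 0.00549), C3 (0.82, adjusted p = 0.0203) and Mmp9 (2.43, adjusted p = 0.0191), a gelatinase that cleaves osteopontin. Sp1 levels were also higher in SH045 without overlap in injured tubule, intercalated cells, the thick ascending limb, the distal convoluted and connecting tubule, principal cells, endothelium and granulocytes. They overlapped in proximal tubule, fibroblasts, T cells, monocytes and both kinds of dendritic cell. Mmp9 was scarce, at 12.4, 5.33 and 4.49 CPM in SH045, against 0.325, 1.26 and 1.57 in Vehicle. Mmp12, the macrophage elastase, fell by 1.26 (adjusted p = 0.0301), and the lipid-associated genes Lgals3 and Cd9 fell by 0.80 (adjusted p = 0.0115) and 0.79 (adjusted p = 0.0202). Lgals3, which encodes galectin-3, had 525, 615 and 546 in SH045, against 1005, 925 and 710 in Vehicle. Trem2 (-0.16, adjusted p = 0.487), Gpnmb (0.08, adjusted p = 0.950) and Arg1 (1.12, adjusted p = 0.565) did not pass.

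Among the genes whose levels most resembled Spp1 over the 84 sums of 14 types by 6 libraries, out of 9506 genes with a mean of at least 10 CPM, were Tsc22d1 (Pearson r of log2 levels 0.88), Hbegf (0.876), Gabarapl1 (0.874), Kng2 (0.872) and Paqr5 (0.867). Then came Pth1r (0.866), Idh2 (0.864), Gnai1 (0.863) and Sgms2 (0.859). Tsc22d1 encodes a transcription factor, Hbegf an epidermal growth factor receptor ligand, Kng2 a kininogen and Pth1r the parathyroid hormone receptor. The sums of a library share its depth and free RNA, so these values are a description. Over tubule types alone these genes ranged from 0.186 for Idh2 up to 0.815 for Kng2, and over myeloid types alone from 0.389 for Kng2 up to 0.644 for Pth1r.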

How the data were processed

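Single-cell RNA was measured in 6 obstructed mouse kidneys on a microfluidic chip with barcoded oligo-dT beads (Singleron GEXSCOPE, 6000 cells targeted), per the labels' protocols. The deposited matrices hold raw UMI counts per gene and barcode, which the authors made on the mm10 build, per the submitters' processing notes; the aligner, the annotation and the cell calling are not given in the sources used here. Totals were 21186872 to 32256602 UMIs a library, and every deposited barcode had at least 2166 UMIs.

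Barcodes with at least 200 genes and at most 50% mitochondrial UMIs were kept, and no doublets were removed. A cell joined the type whose markers had the highest mean log level, with at least 2 markers seen and a lead of 0.25; 85.4% of gated cells lay in a same-named one of 32 Leiden clusters. Of the gated cells inside a cluster, 55.2% and 52.1% had the cluster's type in the 2 injured tubule clusters and 26.8% in the granulocyte cluster. Spp1 was in no marker list. Counts were summed per type and library, with 1 library per mouse as the replicate, and tested with edgeR 4.0.16 (TMM, quasi-likelihood, filterByExpr, Benjamini-Hochberg over all genes, limit 0.05) in R 4.3.3; the 2 types were compared in 1 fit with library as a block. Scripts were tested on simulated counts. Alternatives used DESeq2 1.42.0, no filter, a length-trend offset, scanpy 1.11.5 clusters, doublet scores (top 5% removed), a stricter gate, at most 20% mitochondrial UMIs, subtraction of T-cell levels and each library left out.

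Spp1, the cell types and all gene lists were chosen with earlier results of these data known. Genes named were Spp1, listed genes that passed (at most 4 per list and fit), 12 fixed names, the 10 most like Spp1 and the 5 largest called differences each way, some of which are not reported here; genes whose levels only are given by type, and the loop genes in intercalated cells, were chosen after their values were seen. UMIs are counted molecules, and a level of 0 says only that none was seen at this depth. Where mice were housed, dissected or sequenced together is not given in the sources used here.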

Additional observations from a re-analysis of the deposited data

Results flagged for a closer look

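The SH045 change of Spp1 differed between cell types by edgeR's interaction test, with library as a block: by -1.51 between injured tubule and intercalated cells, by -1.03 between principal and intercalated cells and by -0.74 between proximal tubule and intercalated cells. Each difference is negative because the SH045 change was the higher in intercalated cells, and the pairs share the intercalated sums.

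The same test between injured tubule and intercalated cells passed for 8 further genes reported here that the naming rule picked. The differences were 3.26 for Iigp1, 2.95 for Tgtp1, 2.41 for Igtp, 2.13 for Ifi47 and 1.30 for Atp6v1b1 on the positive side. On the negative side they were -5.50 for Rnase1, -2.03 for Pdpn and -1.86 for Gpx3.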

How the results depend on the processing

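The difference between injured tubule and intercalated cells kept its sign under each of the other settings named with the processing (-1.73 to -1.46). Its sign also held without each library (-1.71 to -1.30). It passed in each of these that gave an adjusted p. Subtraction of T-cell levels gave only an exact permutation p, which cannot go below 0.1 and so could not pass. With replicate number as a block the difference was -1.51. Deviations of same-numbered whole libraries correlated at 0.0098, 0.204 and 0.407. SH045 2 and SH045 3 correlated best with the Vehicle library of their own number, and SH045 1 correlated best with Vehicle 2 (0.217). These few values cannot decide whether replicate numbers pair the samples, which the labels do not say. Under the block macrophages (-0.83, adjusted p = 0.0111) and T cells (-1.53, adjusted p = 0.00569) passed, and principal cells were at -0.0082. Of the subsets chosen after the data were seen, type B alone passed (change 1.39, difference -1.84), and intercalated cells without a loop UMI (change 0.56, difference -1.07) and type A alone (change 0.63, difference -1.02) did not. The intercalated change was 1.22 (adjusted p = 0.0694) without the length trend, which put the distal convoluted and connecting tubule at 0.15.

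Without the low-count filter injured tubule was -0.49 (adjusted p = 0.0184) and macrophages -0.90, and both passed, as did injured tubule by DESeq2 (-0.48). Macrophages also passed with Leiden clusters (-0.57) and the stricter gate (-0.60). Leiden clusters put granulocytes at -1.14, principal cells at -0.18 and T cells at 0.060, and the stricter gate put principal cells at -0.0073. Removing doublet scores put Xcr1+ dendritic cells at -0.20. Without barcodes holding a tubule UMI monocytes were at 1.90 (passed), granulocytes at 0.27 and endothelium at 0.065. Subtracting T-cell levels put principal cells at 0.66, and was not possible for 6 types with libraries not above T cells. Granulocytes had too few cells for doublet removal or the stricter gate. Causes were not tested.

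Leaving out a library gave -0.61 to -0.40 for injured tubule, -1.12 to -0.49 for macrophages, 0.71 to 2.15 for monocytes, 0.37 to 1.01 for Xcr1+ dendritic cells, -0.28 to 0.19 for principal cells, -0.25 to 0.14 for the distal convoluted and connecting tubule and -0.10 to 0.35 for the thick limb. The sign turned without SH045 1 or Vehicle 1 in principal cells, without SH045 2 or Vehicle 2 in the distal tubule and without SH045 3 in the thick limb. With Leiden clusters mean levels moved to 227 CPM in Cd209a+ dendritic cells, 15701 in the distal convoluted and connecting tubule, 1804 in granulocytes, 9261 in injured tubule and 2660 in principal cells. Listed genes passing numbered 6 in injured tubule, 7 in intercalated cells and 2 in the difference without the filter, where 2.33%, 1.41% and 0.194% of all genes passed, and 0 to 2, 0 to 7 and 0 to 1 without each library, with 1 to 10 in macrophages. All genes passing without each library ranged over 0.128% to 1.22%, 0.464% to 4.74%, 0.0545% to 0.398% and 0.124% to 7.62% in these 4 comparisons.

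With 3 mice a group an exact test on 1 value cannot go below p = 0.1. In granulocytes, endothelium and T cells most cells with high Spp1 also held a tubule UMI.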

Other observations

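Gated types with under 20 cells in some library entered no test. Subsets added after the data were seen were tested without this limit. Among them were type B intercalated cells, with 16 cells in Vehicle 1, and granulocytes without a tubule UMI, with 17 in SH045 2. Thin limb cells, 6 to 11 a library, had 7542, 10035 and 20912 CPM of Spp1 in SH045 libraries, against 12845, 10507 and 16308 in Vehicle libraries, near the level of injured tubule. Pericytes and smooth muscle, 6 to 27 cells a library, had 2696, 5170 and 2071 in SH045, against 5394, 6735 and 9858 in Vehicle, groups that do not overlap. Urothelium, 3 to 27 cells, ranged between 44.0 and 15098 over the 6 libraries, and podocytes, 2 to 11 cells, between 51.8 and 12404, so single cells decide those values. Plasma cells had 37.3 to 515. The 5870 cells that no gate claimed had 2550 to 6214.

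Adamts1, which encodes a secreted metalloproteinase, was outside the naming rule and was chosen after its values were seen, since its difference between injured tubule and intercalated cells (-1.29 ± 0.16, edgeR adjusted p = 1.91e-05) ranked next to that of Spp1. In intercalated cells it had 140, 133 and 108 CPM in SH045, against 34.0, 52.4 and 79.1 in Vehicle, and in injured tubule 1477, 1284 and 1249 in SH045, against 1069, 1387 and 1635 in Vehicle.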
